A study of Mus musculus with 4 samples.

Results

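Nuclear genes that govern how much mitochondrial DNA is copied and transcribed, and genes that fuse and divide mitochondria, were examined in muscle that overexpresses the nuclear receptor PPARα. The 10 genes, chosen by name, were Nrf1, Gabpa, Tfam, Tfb1m and Tfb2m of mitochondrial biogenesis, Mfn1, Mfn2 and Opa1 of fusion, and Dnm1l and Fis1 of fission. All 10 had at least 1 probe set with that gene symbol, 21 probe sets in all, out of 12393 genes and 20380 probe sets with 1 gene symbol on the array. Total RNA was taken from the gastrocnemius, a large muscle of the calf. The donors were mice that carry a PPARα transgene (MCK-PPARa) and their non-transgenic littermates (NTG), with 2 arrays per group and 1 array per sample. The labels call the transgene muscle-specific, and MCK is the usual abbreviation for muscle creatine kinase, whose promoter is used to drive transgenes in muscle fibres. Age, sex and diet were not given in the sources used here. Nothing in the labels links an array to its mouse except a replicate number. P-values therefore measure only the spread between these samples, which may be technical.

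Most mitochondrial proteins are encoded in the nucleus. NRF1 and GABPA, the DNA-binding subunit of GABP, also called NRF2, are transcription factors that act on the promoters of many of these genes, and the coactivator PGC-1α works through them. TFAM packages mitochondrial DNA and, with TFB2M, starts its transcription, while TFB1M methylates mitochondrial ribosomal RNA. Mitofusins MFN1 and MFN2 fuse the outer membranes of neighbouring mitochondria and OPA1 fuses the inner membranes. DRP1, the product of Dnm1l, is a GTPase that constricts mitochondria at division, and FIS1 is an outer-membrane protein that can recruit it.

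For none of the 10 genes was a difference between MCK-PPARa and NTG muscle detected beyond the spread between arrays. Their changes ran from -0.57 (Tfb2m) to 0.32 (Tfb1m) on the scale of log2(signal + 64.2), as MCK-PPARa minus NTG, with a median of 0.087 against 0.053 over all 8400 genes tested. In limma's test 0 of 10 passed a Benjamini-Hochberg adjusted p of 0.05 over all genes, where 0.0595% of genes did, and 0 of 10 had an unadjusted p under 0.05, where 5.85% of genes did. The groups did not overlap for 3 of the 10 genes, Nrf1, Tfam and Tfb1m, and for 34.2% of all genes. Within replicate 1 the median change was 0.12, and within replicate 2 it was 0.060. It was -0.013 when each array was centred on its median and -0.011 when a gene's probe sets were averaged, so its sign depended on the processing.

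Ppara, the gene that the transgene carries, had higher signals in the transgenic libraries. Its probe set (1449051_at) had NTG signals of 633 and 2674 and MCK-PPARa signals of 7969 and 15226, 3.003 ± 0.617 apart on the log2 scale (SE, n = 2 per group, limma adjusted p = 0.21). Both transgenic arrays lay above both controls, although the gene did not pass over all genes tested. Whether this probe set reads the transgene's own transcript was not tested. All 10 skeletal muscle markers stood at or above the 99.65th percentile of mean signal on the array. Adipocyte markers, of which 6 of 8 were on the array, had higher summed signals in the transgenic samples. The sums were 62978 and 29338 against 12975 and 10638 in NTG, and none was at 0. Scd1 (34036) and Fabp4 (21784) made up most of the sum on MCK-PPARa replicate 1. Summed endothelial markers (9089 and 11068 in NTG, 13313 and 14238 in MCK-PPARa) and macrophage markers (8189 and 8917 in NTG, 10145 and 11162 in MCK-PPARa) did not overlap between groups either. The same held for fibroblast markers (228276 and 192891 in NTG, 255848 and 230486 in MCK-PPARa) and for the 2 of 5 red blood cell markers on the array (3389 and 2921 in NTG, 4432 and 3771 in MCK-PPARa), while the sums of nerve and skeletal muscle markers overlapped. Single markers could differ from their sums. Of the 5 endothelial markers Tek and Emcn overlapped between groups, and Emcn had a change of -0.084. Among the 5 macrophage markers Cd14 and Cd68 overlapped. Of the 5 fibroblast markers 3 lay above 0, while Pdgfra was lower in MCK-PPARa (803 and 762) than in NTG (1145.5 and 2011). Of the adipocyte markers all 5 past the filter lay above 0, but Lipe overlapped between groups. The part of other cell types in the values below was not tested. In whole muscle, fewer cells of a type and less RNA per cell cannot be told apart.

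**Figure D1:**
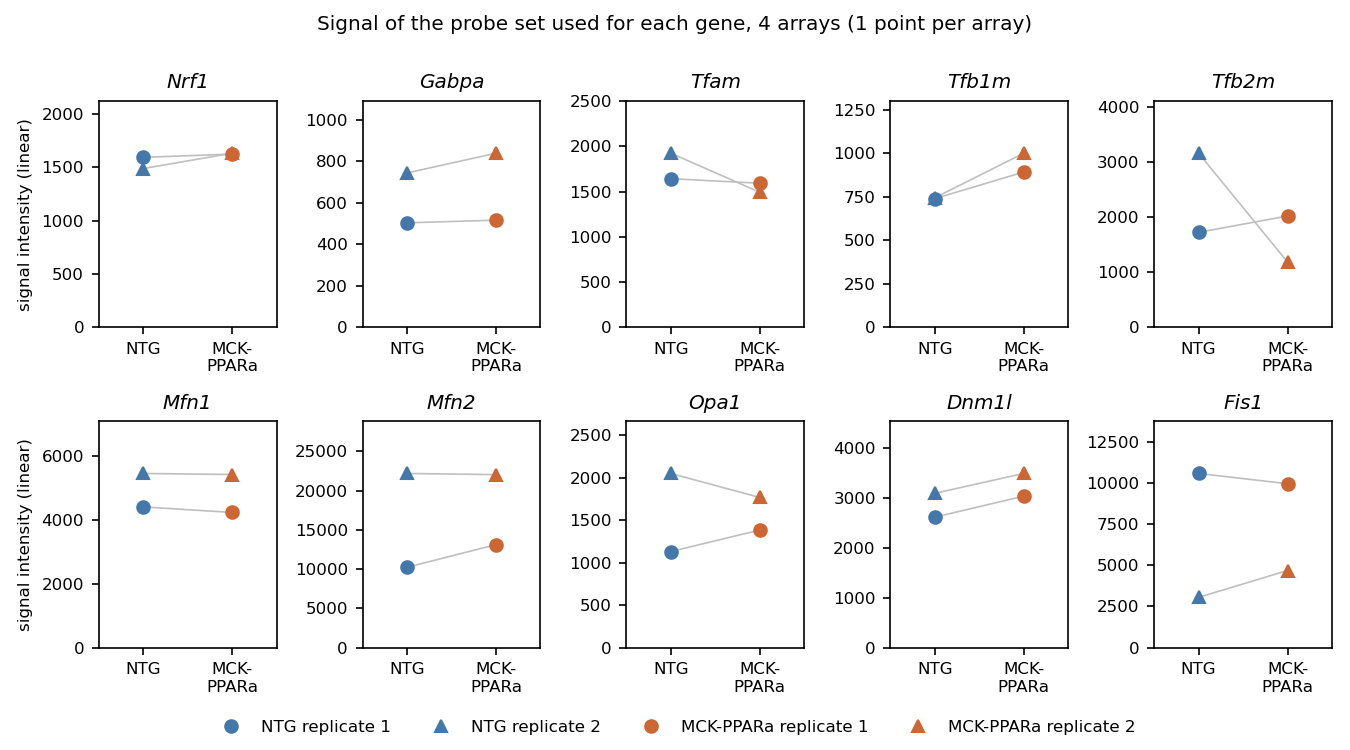
Signal intensity (linear, axes from 0) of the probe set used for each of the 10 genes on the 4 arrays, with NTG in blue, MCK-PPARa in orange, replicate 1 as circles, replicate 2 as triangles and grey lines joining arrays of the same number. Groups overlap for 7 genes. Gabpa, Mfn1, Mfn2, Opa1, Dnm1l and Fis1 separate by replicate number and not by genotype, with the largest such differences in Fis1 and Mfn2.

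The set holds both factors and promoters that carry their motifs, and the promoter bases that do so are shown because the levels of the factors and of the genes that carry the motifs are given below. RefSeq promoters (GRCm38.p6) matched all 10 genes, with 15 starts in all, and the 250 bases before each start were searched on both strands. The NRF1 motif, GCGCA and GCGC with 1 base between them, was found in 1 of the 15 (Opa1), against 3.74% of all 32851 promoters. The GABP core CCGGAAG was found in 4 of the 15 (Tfam, Gabpa, Mfn1 and 1 of the 2 Fis1 starts), or 26.7%, against 6.91% of all promoters. The DR1 element, a repeat of AGGTCA with 1 base between the copies, to which PPAR and RXR dimers bind, was in 0 of the 15 and in 0.0335% of all, and the estrogen-related receptor motif TNAAGGTCA in 0 of the 15 and 1.14% of all. No motif found overlapped one of another kind. These shares were not matched for base composition, and a match is a string of letters and not a shown binding site. The 100 bases before the start follow, 5′ to 3′ on the strand of the gene, with the motif in capitals (NRF1 in Opa1, GABP in the others).
Opa1 (chr16:29579234-29579333, plus strand): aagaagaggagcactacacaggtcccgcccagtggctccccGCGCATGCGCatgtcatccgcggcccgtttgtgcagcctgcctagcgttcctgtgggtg
Tfam (chr10:71238045-71238144, minus strand): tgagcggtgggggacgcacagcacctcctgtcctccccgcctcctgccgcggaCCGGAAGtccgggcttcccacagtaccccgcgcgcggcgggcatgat
Gabpa (chr16:84835024-84835123, plus strand): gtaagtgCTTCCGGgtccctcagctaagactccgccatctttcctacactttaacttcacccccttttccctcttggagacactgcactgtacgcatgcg
Mfn1 (chr3:32529382-32529481, plus strand): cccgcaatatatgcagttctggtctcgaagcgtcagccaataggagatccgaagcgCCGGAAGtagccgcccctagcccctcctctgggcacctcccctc
Fis1 (chr5:136953175-136953274, plus strand): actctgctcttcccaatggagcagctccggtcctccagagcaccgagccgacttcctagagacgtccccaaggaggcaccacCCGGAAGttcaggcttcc

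Of the 2 transcription factors, Nrf1 was read by 3 probe sets. The brightest (1434627_at) had NTG signals of 1594 and 1488 and MCK-PPARa signals of 1624 and 1633. Both transgenic arrays lay just above both controls, by 0.077 ± 0.299 (SE, n = 2 per group) on the log2 scale, with a 95% interval from -0.61 to 0.77 (limma adjusted p = 0.99). A dimmer probe set (1424787_a_at) read 1530 and 676 on the NTG arrays and 882 and 687 on the MCK-PPARa arrays, where 1 control array stood above the other 3. Its difference was -0.37 ± 0.48 in the fit of all probe sets without a filter. The dimmest (1420978_at) had the same shape, with 345 on NTG replicate 1 and 63.3 to 99.0 on the other 3 arrays, and lay below the filter on dim probe sets.

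Gabpa had 2 probe sets that both passed the filter. The brighter (1450664_at) had NTG signals of 503.9 and 745 and MCK-PPARa signals of 517 and 839.9, and the other (1450665_at) 384 and 799 on the NTG arrays and 539 and 919 on the MCK-PPARa arrays. In both, the replicate 2 array was the higher of each group, and the groups overlapped. The differences between groups were 0.097 ± 0.434 (limma adjusted p = 0.995 over all genes) and 0.31 ± 0.52 (0.98 over all probe sets).

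Tfam, the packaging factor of mitochondrial DNA, was measured by 1 probe set (1448224_at) with NTG signals of 1644 and 1926 and MCK-PPARa signals of 1593 and 1494. Both transgenic arrays were the lower ones, by a log2 difference of -0.043 within replicate 1 and -0.35 within replicate 2. The change was -0.20 ± 0.30 with a 95% interval from -0.897 to 0.501 (limma adjusted p = 0.98), or from 0.54 to 1.42 times the control level.

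The paralogues TFB1M and TFB2M had values of opposite sign, without a call for either. Tfb1m (1449749_s_at) had closely matched NTG signals of 739 and 743 and MCK-PPARa signals of 892 and 999.9. It had the highest value among the 10, 0.32 ± 0.35 or 1.25 times the control, with a 95% interval from 0.72 to 2.18 times (limma adjusted p = 0.97). Its second probe set (1435924_at) was dim, between 69.7 and 165 on the 4 arrays, and gave -0.21 ± 0.51. Probe sets whose name ends in _s_at can match transcripts of more than 1 gene, so the 2 need not read the same transcripts.

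Tfb2m (1423441_at) had the lowest value of the 10 and the smallest unadjusted p. Its NTG signals were 1722 and 3158 and its MCK-PPARa signals 2019 and 1184. The highest and the lowest of the 4 were the replicate 2 arrays, and the replicate 1 arrays were nearly level between them. Within replicate 1 the change was 0.22 and within replicate 2 it was -1.37, or -0.57 ± 0.41 over both (limma adjusted p = 0.96). Leaving out 1 replicate 2 array gave -0.20 (MCK-PPARa) or -0.15 (NTG), and leaving out 1 replicate 1 array gave -0.94 (MCK-PPARa) or -0.999 (NTG), with limma adjusted p from 0.38 to 0.9999 over these fits. A change of this size or larger was seen in 18.2% of all genes tested.

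**Figure D2:**
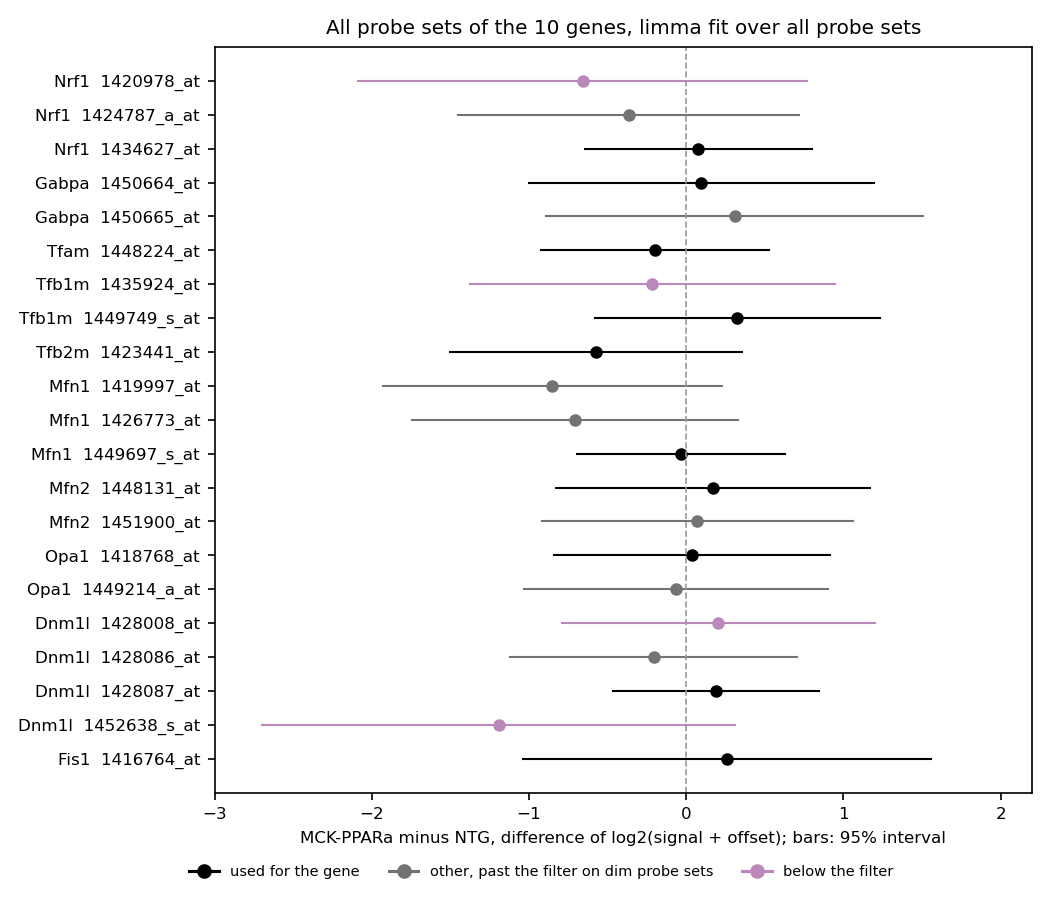
Difference of log2(signal + 64.2), MCK-PPARa minus NTG, for all 21 probe sets of the 10 genes (points) with 95% intervals from limma (bars, n = 2 arrays per group), in the fit of all probe sets. Every interval covers 0, and the 3 Mfn1 probe sets lie at -0.85, -0.71 and -0.033.

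Among the fusion genes, the 3 probe sets of Mfn1 gave different values. The brightest (1449697_s_at) had NTG signals of 4417 and 5466 and MCK-PPARa signals of 4241 and 5433, a near match within each replicate number. Its change was -0.033 ± 0.302 with a 95% interval from 0.60 to 1.59 times the control (limma adjusted p = 0.996). A second (1426773_at) read 1976 and 1569 on the NTG arrays and 1661 and 661 on the MCK-PPARa arrays, with 1 transgenic array below the other 3. The third (1419997_at) read 662 and 804 on the NTG arrays and 367 and 385 on the MCK-PPARa arrays, so that both transgenic arrays were lower. These 2 gave -0.71 ± 0.46 and -0.85 ± 0.47, and limma's adjusted p over all probe sets was 0.98 and 0.97. The name of the brightest ends in _s_at, so, as for Tfb1m, the 3 need not read the same transcripts. A test of the difference between probe sets of 1 gene was not made.

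Mfn2, the mitofusin that also tethers mitochondria to the endoplasmic reticulum, followed the replicate number. Its bright probe set (1448131_at) had NTG signals of 10222 and 22172 and MCK-PPARa signals of 13106 and 22022. The replicate 2 arrays were level between groups, at a difference of -0.0098, and the replicate 1 arrays differed by 0.36. Over both, the change was 0.17 ± 0.44 (limma adjusted p = 0.99). The second probe set (1451900_at) stayed between 617 and 710.1 on all 4 arrays, with a change of 0.070 ± 0.435 and no such step between replicate numbers.

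Opa1, the inner-membrane fusion GTPase whose promoter holds the NRF1 motif printed above, had NTG signals of 1131 and 2051 and MCK-PPARa signals of 1385 and 1768 (1418768_at). Both transgenic arrays lay between the 2 controls. The change was 0.035 ± 0.374 (limma adjusted p = 0.996), made of 0.28 within replicate 1 and -0.21 within replicate 2. The second probe set (1449214_a_at), at 683 and 1066 on the NTG arrays and 752 and 882 on the MCK-PPARa arrays, showed the same order of the 4 arrays.

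Among the fission genes, Dnm1l had 4 probe sets, of which 2 were bright. The brightest (1428087_at) had NTG signals of 2613 and 3090 and MCK-PPARa signals of 3034 and 3489, higher in the transgenic array by 0.21 within replicate 1 and by 0.17 within replicate 2. The groups still overlapped, and the change was 0.19 ± 0.29 with a 95% interval from 0.71 to 1.83 times the control (limma adjusted p = 0.98). The next (1428086_at) read 1827 and 4078 on the NTG arrays and 2133 and 2612 on the MCK-PPARa arrays, with both transgenic arrays between the controls and a change of -0.21 ± 0.40. The other 2 lay below the filter. Of these, 1452638_s_at had 234 and 821 on the NTG arrays and 214 and 117 on the MCK-PPARa arrays. Both transgenic arrays lay below both controls, 1 of them only slightly, and NTG replicate 2 stood well above the other 3 arrays. The value of -1.19 ± 0.66 was the lowest of all 21 probe sets (limma adjusted p = 0.97). Because the name ends in _s_at, this probe set need not read the same transcripts as the others. The dimmest, 1428008_at, was at 21.6 to 85.8, around the offset of 64.2, and carries little information.

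Fis1 had a single probe set (1416764_at) with NTG signals of 10579 and 3047 and MCK-PPARa signals of 9956 and 4680. The replicate 1 arrays of both groups were high and the replicate 2 arrays of both were low. The change between groups was 0.26 ± 0.59, the least precise of the 10, with a 95% interval from 0.46 to 3.10 times the control (limma adjusted p = 0.99). Within replicate 1 it was -0.087, and within replicate 2 it was 0.61.

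Over all 21 probe sets, 10 lay above 0 and 11 below. In limma's fit of all probe sets 0 of 21 passed an adjusted p of 0.05, where 0.0196% of probe sets did, and 0 of 21 had an unadjusted p under 0.05, where 5.53% did. Groups did not overlap for 5 of the 21 probe sets, 2 higher and 3 lower in MCK-PPARa, and for 33.8% of all probe sets. In the gene fit, which reads only the brightest probe set, 95% intervals were not adjusted for the number of genes. For 5 genes (Nrf1, Tfam, Mfn1, Opa1 and Dnm1l) this interval lay within a 2-fold change in either direction. Other probe sets of Nrf1, Mfn1, Opa1 and Dnm1l had intervals that reached past 2-fold, such as -1.93 to 0.23 (log2) for Mfn1 (1419997_at). For Gabpa, Tfb1m, Tfb2m, Mfn2 and Fis1 a change of 2-fold was within the interval in at least 1 direction, so these arrays do not exclude one of that size.

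Several of the genes differed more between replicate numbers than between genotypes. The difference of replicate 2 from replicate 1 came from a limma fit with genotype and replicate number as terms. It was larger in size than that between genotypes for 6 of the 10 genes (Gabpa, Mfn1, Mfn2, Opa1, Dnm1l and Fis1). The share of all genes for which this holds was not counted, so the 6 cannot be called particular to this set. The replicate difference passed an adjusted p of 0.05 for Fis1 and Mfn2, 2 of the 10, where 3.63% of all 8400 genes passed. Fis1 was lower on the replicate 2 arrays, with differences of -1.77 in NTG and -1.08 in MCK-PPARa (-1.43 over both, limma adjusted p = 0.018). Mfn2 was higher on them by 1.11 in NTG and 0.75 in MCK-PPARa (0.93 over both, limma adjusted p = 0.037). Tfb2m differed the opposite way in the 2 groups, at 0.85 in NTG and -0.74 in MCK-PPARa. With replicate number in the fit the genotype difference passed for 0 of the 10 genes, where 2.33% of all genes passed. This fit was read for replicate number after the values were seen, and it has 1 residual degree of freedom per gene.

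The labels do not say what the replicate number marks. Other features of the arrays moved with it. For 18S ribosomal RNA the 5′ control signal was 2202 and 2313 on replicate 1 arrays but 28.9 and 44.7 on replicate 2 arrays, while the ratio of 3′ to 5′ signal stayed between 0.72 and 0.96 for Gapdh and between 0.79 and 0.88 for β-actin. Ppara, too, was higher on the replicate 2 array of each group. The part of any of these in the Fis1 and Mfn2 values was not tested.

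**Figure D3:**
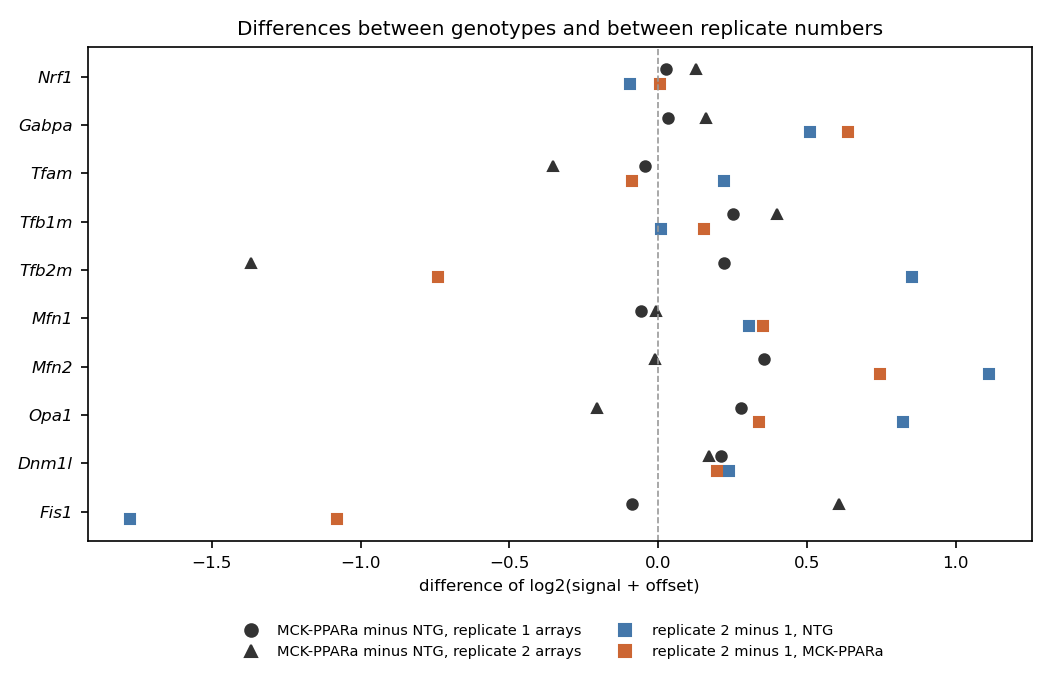
For each of the 10 genes, the difference of log2(signal + 64.2) between MCK-PPARa and NTG arrays of the same replicate number (black circles, replicate 1; black triangles, replicate 2) and between replicate 2 and replicate 1 within NTG (blue squares) and MCK-PPARa (orange squares). Fis1 lies at -1.77 and -1.08 between replicate numbers, and Mfn2 at 1.11 and 0.75.

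Coactivators, receptors and other regulators that act upstream of these genes gave no call either. Of 22 listed, 17 were on the array and 15 were tested, of which 0 rose and 0 fell in limma's test, and 0 had an unadjusted p under 0.05. Their changes ran from -0.19 to 0.56 with 8 above 0. Ppargc1a, which encodes PGC-1α, had NTG signals of 1735 and 1777 and MCK-PPARa signals of 1523 and 1901, with the 2 controls between the transgenic arrays (-0.043 ± 0.305, limma adjusted p = 0.995). Its relative Ppargc1b had the largest value of the list, 6589 and 4950.1 in NTG against 6225 and 11464 in MCK-PPARa. That came from the replicate 2 arrays, which differed by 1.20, while the replicate 1 arrays differed by -0.081 (0.56 ± 0.37, limma adjusted p = 0.96).

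Pprc1, the third member of that coactivator family, was at 0.055 ± 0.412. The estrogen-related receptors Esrra (-0.065 ± 0.391) and Esrrg (0.33 ± 0.38), which PGC-1 proteins coactivate, had overlapping groups. The lysosomal and mitochondrial regulator Tfeb (-0.19 ± 0.28) and the mitochondrial deacetylase Sirt3 (-0.16 ± 0.37) did not pass. Groups did not overlap for Tfeb, lower in MCK-PPARa, the only such gene of the 15 (6.67%), against 34.2% of all genes.

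Genes that replicate and transcribe mitochondrial DNA gave no call. Of 25 listed, 21 were tested with a median change of 0.015 and 11 above 0, and 0 passed in either direction or at an unadjusted p under 0.05. By smallest p these were Suclg1 (0.599 ± 0.339), a citric acid cycle enzyme subunit whose loss depletes mitochondrial DNA, Mterf4 (0.67 ± 0.42), Endog (-0.41 ± 0.38), a mitochondrial nuclease, and Mterf3 (-0.39 ± 0.37). For Suclg1 both transgenic arrays (22305 and 33989) lay above both controls (15866 and 20769), and its limma adjusted p was 0.96.

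Among 25 tested adaptors and proteases of mitochondrial dynamics, of 33 listed, 17 lay above 0, with a median of 0.18. None passed over all genes, while 1 of 25 had an unadjusted p below 0.05, against 5.85% of all genes. That was Stoml2, an inner-membrane scaffold protein that binds prohibitins, with NTG signals of 2648 and 2628 and MCK-PPARa signals of 4864 and 4337. The difference of 0.79 ± 0.28 is 1.72 times the control (limma adjusted p = 0.69). Oma1, the protease that cleaves OPA1 under stress, had 2475 and 3045 on the NTG arrays and 3888 and 4852 on the MCK-PPARa arrays (0.65 ± 0.30, limma adjusted p = 0.89). Spg7, a subunit of an inner-membrane protease (0.77 ± 0.45), and Immt, the core of the cristae-organising complex (0.62 ± 0.37), were the next by p and did not pass.

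Of 31 listed protein import genes 27 were tested, with 11 above 0 and a median of -0.041. None passed, and none had an unadjusted p under 0.05 (0 of 27). The smallest p values belonged to the matrix chaperonins Hspd1 (0.69 ± 0.34) and Hspe1 (0.63 ± 0.34), the small Tim protein gene Timm8b (-0.62 ± 0.32) and the processing peptidase subunit Pmpcb (0.49 ± 0.29). The groups did not overlap for these 4, and for 8 of the 27 in all (29.6%), against 34.2% of all genes.

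Of 22 mitophagy genes 18 were tested, with 9 above 0 and a median of -0.022, and 0 passed, also at an unadjusted p under 0.05. Pink1, the kinase that marks damaged mitochondria, had NTG signals of 2889 and 5956 and MCK-PPARa signals of 6205 and 8818. Both transgenic arrays were higher, the lower of them only slightly above the higher control (0.82 ± 0.40, limma adjusted p = 0.895). Gabarapl1 (0.62 ± 0.30), Becn1 (-0.68 ± 0.34) and Tax1bp1 (0.45 ± 0.30), which act in autophagosome formation or cargo capture, also had groups that did not overlap and did not pass. Over all 5 lists together 105 genes were tested and 0 passed. The groups did not overlap for 30 of the 105 (28.6%), against 34.2% of all genes. The median over the 105 was 0.0092.

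**Figure D4:**
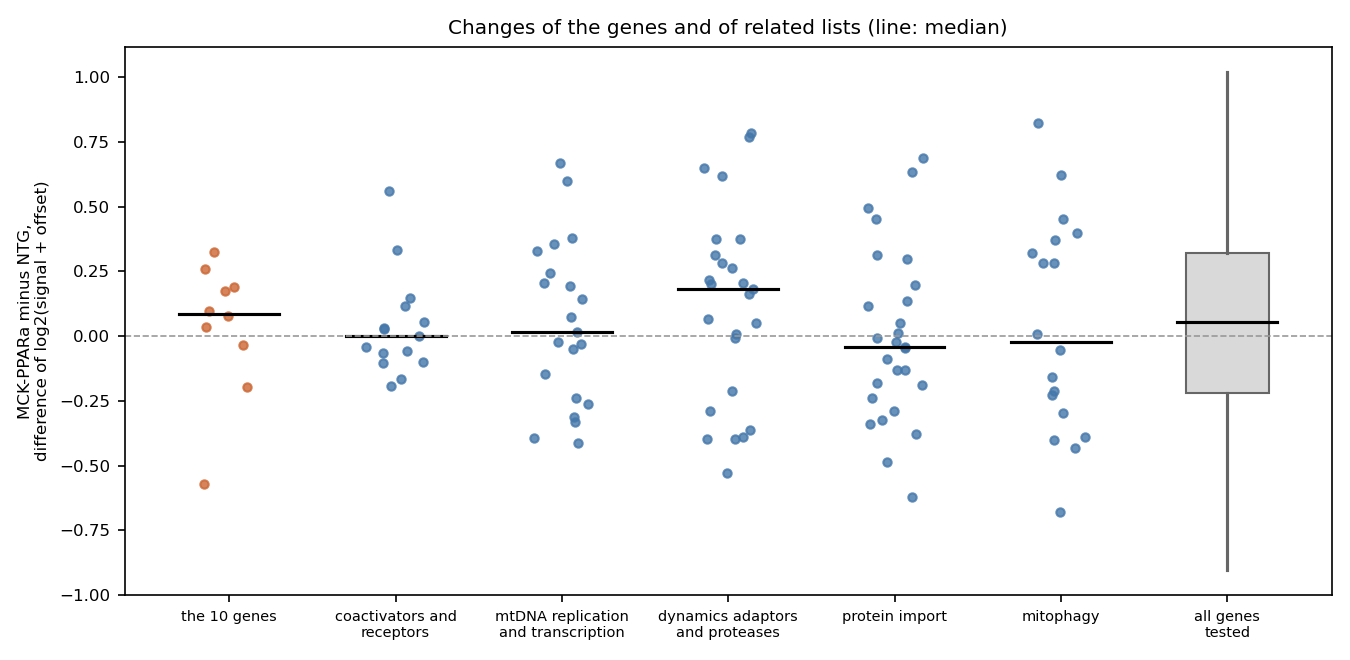
Change of each tested gene, MCK-PPARa minus NTG as a difference of log2(signal + 64.2), for the 10 genes (orange) and 5 related lists without them (blue), with the median of each as a black line. The box gives the 25th to 75th percentile over all 8400 genes (-0.22 to 0.32) and its lines the 2.5th to 97.5th (-0.90 to 1.02), and all 10 genes lie within the latter.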

How the data were processed

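Gene expression was measured on 1-colour Affymetrix mouse arrays, 1 per sample. The authors deposited 1 table of linear signal intensity for 22690 probe sets. Per the submitters' processing notes MAS5 was used, without version or settings. Detection calls were not given in the sources used here, so which probe sets were above background is not known. The 2% trimmed mean was the same on the 4 arrays (1500.6 to 1500.7), and no further normalization was applied.

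Gene symbols came from the platform annotation and were checked by Entrez ID against RefSeq, where 0 differed. Values were taken as log2(signal + 64.2), the offset being 10% of the median of all values, which understates changes of dim genes. A filter removed probe sets whose mean log2 value was under the 40th percentile, and each gene kept its brightest probe set (8400 genes). All 10 genes passed. The log2 scale of this filter was not set in advance. It was chosen after several versions had been run on these data, because it gave the gene count of an earlier analysis of them. Filters on the mean linear signal kept 8402 or 8257 genes. The 64 controls, 691 probe sets with several symbols and 1555 with none were left out. A second fit kept all 20380 probe sets without a filter. MCK-PPARa and NTG were compared in limma 3.58.1 under R 4.3.3 (lmFit, eBayes with a variance trend, two-sided, Benjamini-Hochberg adjustment over all genes, threshold 0.05, 7.86 moderated degrees of freedom). An exact permutation test of 2 against 2 arrays cannot give a two-sided p below 0.333. The fit was checked on simulated data drawn with each gene's moderated spread. A first simulation, with residual spreads shuffled over genes, had found too few of the largest changes to meet the condition set for it. The way the spread is drawn was then changed to the moderated spread, which makes the check easier to meet. That spread comes from the same kind of fit, so the check says little about how the fit does on these arrays. Alternatives were other offsets, filters, normalizations, variance models and probe set rules, a replicate block and leaving out each array.

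The genes named are all 10 with each probe set, the 4 of smallest p in each related list, and Ppara, Ppargc1a, Ppargc1b, Pprc1 and Esrra. The single markers Pdgfra, Scd1, Fabp4, Lipe, Alas2, Hba-a1, Tek, Emcn, Cd14 and Cd68 were named after their values were seen. The members and lists were chosen with earlier results of these data known.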

Additional observations from a re-analysis of the deposited data

How the results depend on the processing

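None of the 10 genes passed under any of the 15 alternatives computed (148 values, limma adjusted p from 0.38 to 0.9999, 0 under 0.05), and none of the 105 related genes did. The replicate numbers are shared by the groups without a stated meaning. Same-numbered arrays deviated together (r = 0.46 over genes, which are no independent replicates). With the replicate block 196 genes and 237 probe sets passed, against 5 and 4 without it, and 0 of the 10. Blocked adjusted p for the 10 ran from 0.49 (Tfb2m) to 0.96 (Opa1).

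The count of 5 genes was 2 under the stricter filter, 3 under median centring and 12 with probe sets averaged. The count of 4 probe sets was 2 with the larger offset, 1 under quantile normalization, 1 under median centring and 0 without a variance trend. Leaving out 1 array, for each of the 4, gave 68 to 150 genes and 0 to 95 probe sets. The 2 filters on the mean linear signal, added after seeing the data, gave 5 genes each and 0 of the 10. The cause of these shifts was not tested.

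The direction turned in 17 of the 148 values, and only Tfam, Tfb1m and Tfb2m kept theirs throughout. The other filters, the fit without a variance trend and the replicate block left the change of each gene they kept as it was. A direction could therefore turn only under the remaining alternatives, and the 148 overstate how many values were free to turn. With arrays centred on their medians Nrf1 was at -0.023, Gabpa at -0.0033 and Opa1 at -0.065. Under quantile normalization Mfn1 was at 0.026. With probe sets averaged Nrf1 was at -0.14, Opa1 at -0.014 and Dnm1l at -0.0076. Mfn1 kept its sign with probe sets averaged but moved from -0.033 to -0.53 ± 0.29 (limma adjusted p = 0.90). Leaving out 1 array gave -0.22 to 0.42 for Gabpa, -0.21 to 0.14 for Mfn1, -0.38 to 0.73 for Mfn2, -0.38 to 0.45 for Opa1, -0.63 to 1.15 for Fis1 and -0.17 to 0.21 for the median of the 10. The Fis1 and Mfn2 differences between replicate numbers passed under quantile normalization (-1.37 and 1.13) and median centring (-1.56 and 0.79) as well. With 2 arrays per group, the number of arrays and the missing detection calls limit all values of dim probe sets.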
